A study of Homo sapiens with 63 samples.

Results

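Replication-dependent histone genes were examined across 9 small cell lung cancer (SCLC) cell lines under 7 conditions. The members were all probes of the Illumina HumanHT-12 v4 array whose platform symbol marked a clustered histone gene (H2AC, H2BC, H3C or H4C with a digit, or H1-1 to H1-5), and no probe carried a symbol in the older HIST form. The rule found 78 probes among 47217 and 68 genes among 20044 with a symbol of their own. Of the probes, 5 were for linker histone H1, 19 for H2A, 23 for H2B, 16 for H3 and 15 for H4. A single probe was annotated to H3C6 and H3C11 together and was counted as a probe but named for neither gene.

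The established lines DMS53, DMS114, DMS153, H69, H128, H146, H187, H209 and H526, all from SCLC tumours, gave 1 array per condition, 63 in all. Con was the vehicle control. A5 and A50 were veliparib (ABT888), an inhibitor of the DNA damage sensor poly(ADP-ribose) polymerase, at 5 and 50 µM. C+0 was cisplatin, a platinum compound that crosslinks DNA, at a concentration set for each line that ran from 0.4 µM in H526 to 14.5 µM in H128, and C+5 and C+50 were the same cisplatin dose with 5 or 50 µM veliparib. Rad was 2 Gy of gamma radiation. The array treatments lasted a day according to the study's methods. These also state that the identity test of H128 did not match its published reference, so H128 is named wherever a value rests on it. Each line was 1 culture per condition, so the 9 lines served as the replicates of a treatment.

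Histones H2A, H2B, H3 and H4 form the protein core around which DNA is wound, and H1 binds the linker between cores. The genes counted here lie in clusters, mainly on chromosomes 1 and 6, and are transcribed in S phase under the coactivator NPAT. Their main mRNAs carry no poly(A) tail and end in a stem-loop bound by SLBP, which governs processing, translation and rapid decay when DNA synthesis stops. Some of the genes also make polyadenylated transcripts, which are known from differentiated or resting cells. Labelling that starts from the poly(A) tail reads the stem-loop form poorly, and how labelling was primed here is not given in the sources used here. In bulk RNA, fewer cells in S phase and less histone RNA per cell cannot be told apart.

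Many of these genes are arranged head to head, an H2A gene and an H2B gene sharing the DNA between their start sites. The 250 bases before the start site are shown for 4 genes that changed with treatment, from RefSeq on GRCh38.p14, 5′ to 3′ on the strand of the gene. Capitals mark CCAAT (the binding element of NF-Y), TATAAA (the TATA box) and the octamer ATTTGCAT (bound by OCT1), each searched on both strands. H2BC5 and H2AC6 rose with 50 µM veliparib, and H2AC20 and H2AC17 fell with the combination of cisplatin and 50 µM veliparib.
H2BC5, chr6:26157871-26158120, plus strand: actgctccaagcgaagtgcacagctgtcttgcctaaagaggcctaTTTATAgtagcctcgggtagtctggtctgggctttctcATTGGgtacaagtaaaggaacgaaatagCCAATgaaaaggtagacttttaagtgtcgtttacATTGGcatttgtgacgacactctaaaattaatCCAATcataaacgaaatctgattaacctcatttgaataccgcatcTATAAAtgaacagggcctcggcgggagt
H2AC6, chr6:26123922-26124171, plus strand: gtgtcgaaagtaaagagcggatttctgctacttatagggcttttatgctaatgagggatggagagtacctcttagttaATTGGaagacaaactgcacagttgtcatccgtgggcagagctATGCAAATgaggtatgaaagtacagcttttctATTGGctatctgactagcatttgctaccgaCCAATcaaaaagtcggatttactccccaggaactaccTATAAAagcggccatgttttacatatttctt
H2AC20, chr1:149886668-149886917, plus strand: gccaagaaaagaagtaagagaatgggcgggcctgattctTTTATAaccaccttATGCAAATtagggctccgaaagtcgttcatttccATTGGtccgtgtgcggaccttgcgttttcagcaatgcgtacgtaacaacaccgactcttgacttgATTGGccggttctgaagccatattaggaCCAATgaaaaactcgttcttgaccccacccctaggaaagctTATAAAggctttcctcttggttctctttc
H2AC17, chr6:27893186-27893435, minus strand: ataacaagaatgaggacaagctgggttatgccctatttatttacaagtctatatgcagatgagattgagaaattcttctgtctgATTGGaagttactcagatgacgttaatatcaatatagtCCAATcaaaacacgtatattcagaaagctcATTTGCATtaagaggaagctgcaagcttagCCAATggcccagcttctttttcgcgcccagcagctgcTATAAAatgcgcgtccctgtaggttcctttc

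Each of the 4 sequences held TATAAA on the strand of the gene close to its start, beginning 28 to 31 bases before it. CCAAT or its complement occurred 4 times before H2BC5 and 3 times before each of the others. The octamer was found before H2AC6, H2AC20 and H2AC17, once in each, and not in the H2BC5 window. The genes that rose and those that fell thus shared the CCAAT and TATAAA letters. RefSeq promoters were matched for 63 of the 68 member genes, and the same letters were counted in 27305 promoters in all. CCAAT was present in 84.1% of the member promoters against 33% of all, TATAAA in 66.7% against 11.1%, and the octamer in 41.3% against 1.66%. All 16 H2A, 18 H2B, 11 H3 and 5 H1 promoters held CCAAT, and 3 of 13 H4 promoters did. The octamer was in 14 of 18 H2B promoters and 11 of 16 H2A promoters, in 1 of 11 H3 promoters and in no H1 or H4 promoter window. The H3 promoter with it was that of H3C4, whose annotated start is also that of the H2A gene H2AC7. Both genes thus have the same window, and its CCAAT and octamer letters were counted in each class. Of the 10 matched genes with a probe detected on every array, 3 held the octamer, against 5 of 12 genes whose probes were detected on no array.

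A probe was called detected on an array where the deposited detection p-value, a comparison with negative control beads, was under 0.05, and was kept for testing where this held on at least 4 of the 63 arrays. Of the 78 member probes, 50 passed (64.1%, against 65.1% of all probes), for 44 of the 68 genes. The filter is lenient. H3C4 (4 arrays), H1-5 (5), H2AC4 (6) and H3C2 (8) passed it with no array at a detection p under 0.01. Detection was graded: 14 probes were detected on all 63 arrays, 16 on 33 to 62 and 20 on 4 to 32, while 10 were detected on 1 to 3 arrays and 18 on none. Probes detected everywhere belonged to H1-2, to H2AC18, H2AC19, H2AC20 and H2AC25, to H2BC5, H2BC12 and H2BC21, and to H4C3, H4C12 and H4C14. No H3 probe was detected on all arrays, though 14 of 16 H3 probes passed the filter, the largest share of the 5 classes. The H3 probes detected most often were those of H3C7 (61 arrays) and H3C13 (60 arrays).

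**Figure D1:**
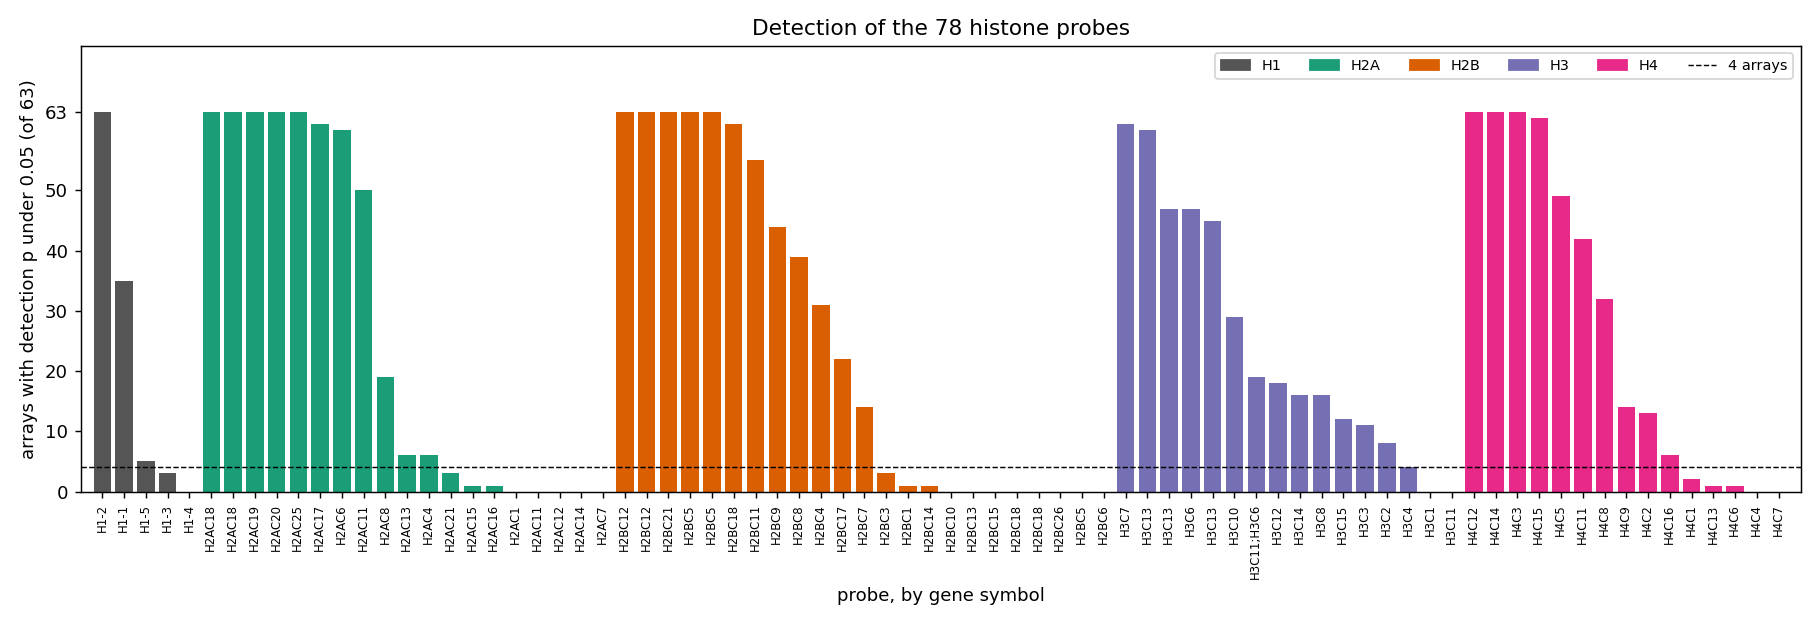
Number of arrays (of 63) with a detection p under 0.05 for each of the 78 histone probes, coloured by histone class and ordered within it; the dashed line marks the 4 arrays needed for testing. In every class some probes were detected on most arrays and others on none, with 14 probes at 63 and 18 at 0.

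The 24 genes without a kept probe were H1-3 and H1-4 of the linker histones, 7 H2A genes, 8 H2B genes, H3C1 and H3C11, and 5 H4 genes. Probes of the same gene could differ in detection. H2BC5 (formerly HIST1H2BD) had 3 probes: the pair designed to 1 RefSeq transcript was detected on all 63 arrays, and the probe designed to the other transcript of the gene on none. H2BC18 had 1 probe detected on 61 arrays and 2 on none, and H2AC11 had 1 detected on 50 arrays and 1 on none. The H2A genes H2AC18 and H2AC19 are near-identical copies, so the signal of their 3 probes cannot be assigned to 1 gene.

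The number of member probes detected on an array depended on the line. On the Con arrays it was 44 in H187, 39 in H146, 36 in H526, 35 in H128, 33 in DMS153, 32 in DMS114, 30 in H69, 28 in DMS53 and 26 in H209. H187 kept the top place under every condition, with 42 to 48 probes, and DMS53 (19 to 28) and H209 (23 to 31) had the fewest. The mean number of members detected fell by 3.44 probes with C+50 against Con, with 8 of 9 lines lower (exact sign-flip permutation test over lines, two-sided, p = 0.0156, adjusted over 6 conditions p = 0.0468). With C+5 it fell by 2.22 probes, with 8 of 9 lines lower and none higher (same exact test, p = 0.00781, adjusted p = 0.0468). The mean change was -3 probes with A50 (adjusted p = 0.125), -1.44 with C+0 (adjusted p = 0.375), -0.889 with A5 (adjusted p = 0.6) and -0.444 with Rad (adjusted p = 0.832), none past the threshold in the same exact test. The number of all probes detected, 20682 on average with Con, changed by -0.822% with C+50 and 0.122% with C+5. In the same terms the number of members detected changed by -10.2% and -6.6%. For all probes the adjusted p was at least 0.726 in each of the 6 conditions by that exact test.

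Signal intensity was quantile normalized and expressed on the log2 scale, and since probes bind with different strength, levels are compared only between arrays of 1 probe. Cell line accounted for most of the variation. Over the 50 kept members the median share of a probe's sum of squares was 85.3% for line, 2.01% for condition and 11.5% for the rest, close to 86.6%, 2.53% and 9.81% over all kept probes. For the 14 members detected on every array it was 97.1% for line and 0.633% for condition, against 92.6% and 1.81% over the 11797 probes detected on every array. Among these 14, the 2 H2BC5 probes had the largest condition shares, 5.77% and 4.56%.

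H4C3 (formerly HIST1H4C), an H4 gene, gave the brightest spot of the members, a rank that also depends on the probe. Its Con level was 13.74 in H69, 13.88 in H128, 13.80 in H146, 13.89 in H187, 13.75 in H209, 13.74 in H526, 13.77 in DMS53, 12.67 in DMS114 and 13.53 in DMS153. The level lay between 13.53 and 13.89 in 8 lines and was lower in DMS114, whose mean over 7 arrays was 12.75 ± 0.33 (SD). The highest signal of any probe on the arrays was 14.10, so H4C3 lay near the top of the scale. Whether differences between arrays are narrowed there was not tested. H1-2 (formerly HIST1H1C), a linker histone, gave the opposite picture in that line: its Con level was highest in DMS114 (9.29) and H128 (9.28), followed by H146 (8.80), and lay between 7.94 and 8.20 in the other 6 lines. DMS114 was also the line with the lowest sum of 7 neuroendocrine markers (53.7 on the summed log2 scale, against 62.5 to 76.2 in the other lines). Its sum of 4 non-neuroendocrine markers was the highest (40.4 against 26.9 to 30.1). Not every marker followed the sums. POU2F3 was highest in H526 (9.75, against 6.63 in DMS114), and GRP was higher in DMS114 (7.27) than in H69, H128, H187 and H526. The part of this marker difference in the H4C3 and H1-2 levels was not tested.

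H2BC12 (formerly HIST1H2BK), an H2B gene, was read by 2 probes that ordered the lines alike (Pearson r = 0.945 across the 9 line means, a description). On the Con arrays the first probe ran from 9.05 in H526 to 10.76 in H128 and the other from 7.22 in H526 to 9.09 in H128, folds of 3.27 and 3.65. All 7 arrays of H526 lay below every array of the other lines for either probe. The brighter H2AC18 probe (7.6 to 9.19) and H2AC19 (7.58 to 9.17) were lowest in DMS53 and highest in H128 and H187, and DMS153 lay just above DMS53.

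The widest range over lines was that of H2BC5, 2.27 on the log2 scale (4.81-fold) for the first probe and 1.74 (3.35-fold) for the second. The first probe's Con level was 9.20 in H128, 8.60 in H187, 8.20 in DMS114, 7.93 in DMS153, 7.81 in H69, 7.63 in H146, 7.43 in H526, 7.37 in H209 and 6.93 in DMS53. Neighbours in this order mostly overlapped over their 7 arrays, while DMS53 stayed below all other lines in both probes. H2AC6 (formerly HIST1H2AC), an H2A gene of the same cluster, spanned 2.01 (4.03-fold): 8.75 in H128, 8.03 in H146, 7.25 in DMS114, 7.15 in H187, 7.05 in H526, 6.95 in DMS153, 6.93 in H69, 6.83 in H209 and 6.74 in DMS53. The 7 arrays of H128 (8.45 to 8.96) stood above those of H146 (7.96 to 8.16), and these above all others. With background correction the ranges of the 2 H2BC5 probes and of H2AC6 were 3.47, 2.75 and 3.51.

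H128 was the highest on the Con arrays for 7 of the 14 member probes detected everywhere, H187 for 4, H146 for 2 and DMS114 for 1. Genes with 2 such probes were counted by probe. The 7 of H128 were both probes of H2BC5, both of H2BC12, both of H2AC18 and that of H2AC20. Those of H187 belonged to H2AC19, H4C3, H4C12 and H4C14. DMS53 was the lowest for 8 of the 14 probes (among them both of H2BC5 and both of H2AC18), H526 for 3, DMS114 for 2 and H209 for 1. H2AC25 (formerly HIST3H2A), from a small separate cluster on chromosome 1, departed from this order: it was highest in H146 (8.96) and H69 (8.78) and lowest in H526 (7.46) and DMS114 (7.498). The line means of H2AC25 correlated with those of H4C14 at r = -0.44 and with those of H2AC18 at r = -0.398. For H2AC19, r was 0.846 with the first H2BC5 probe and 0.902 with the second, while H1-2 and H4C3 gave r = -0.433. Each value is over 9 lines that share their arrays and is given as a description. The map of histone signal by line shows these blocks.

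**Figure D2:**
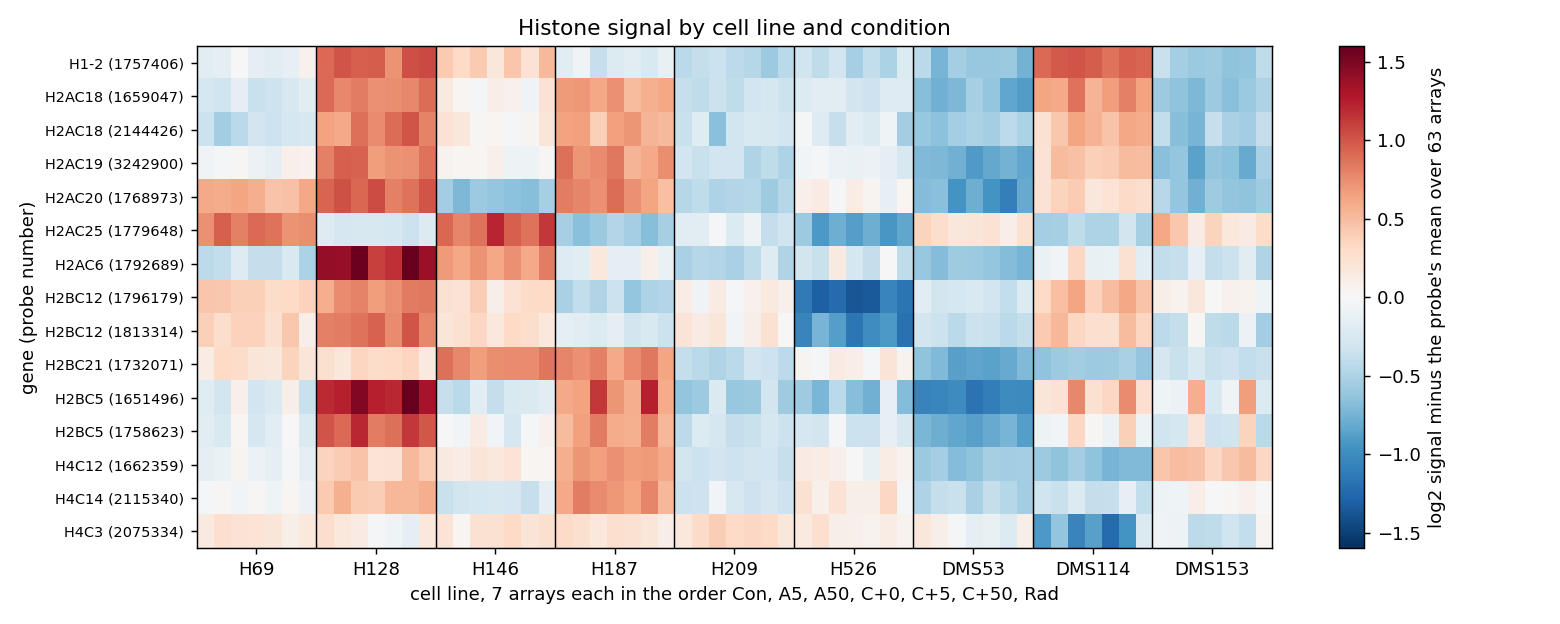
Log2 signal of the 14 histone probes detected on all 63 arrays and of H2AC6, each minus its own mean over the arrays; columns are arrays, 7 per cell line in the order of the conditions, and the colour gives the difference. Lines form blocks of like colour, with H128 high for most probes, DMS53 low, H526 low for H2BC12 and DMS114 low for H4C3; within blocks the H2BC5 probes are raised on the A50 and C+50 arrays of several lines.

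Treatment effects were tested with limma over all 30716 kept probes with the line as a block, and a probe was called at a Benjamini-Hochberg adjusted p under 0.05 over all of them. With 5 µM veliparib (A5) no member was called, and 0% of all probes were. At an unadjusted p under 0.05 limma gave 1 of 50 members and 1299 of 30716 probes in all, and the unmoderated linear model also called 0. The members' median change was -0.01.

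With 50 µM veliparib alone (A50), 3 member probes rose and 3 fell of the 50 tested, against 5.45% of all probes that rose and 6.22% that fell, so the members' share of 6 in 50 (12%) was near the background. The split was 2 higher and 6 lower with median scaling and 4 higher and 1 lower with background correction. The probes that rose were both detected probes of H2BC5 and that of H2AC6, and they were the only members above a change of 0.2. The probes that fell were 1 of H3C13, and those of H2BC7 and H3C14. The median member changed by -0.01 and the median probe by 0.00.

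The first H2BC5 probe had a lowest, median and highest level of 6.93, 7.81 and 9.20 over the 9 Con arrays, and of 7.0, 8.08 and 9.48 over the 9 A50 arrays. The groups overlapped because lines differed widely, but within lines the level was higher with A50 in 9 of 9, by 0.07 in DMS53 up to 0.66 in DMS153. The mean change was 0.35 (SE 0.05, 1.27-fold, limma adjusted p = 2.94e-06). The second probe went from 7.01, 7.56 and 8.75 with Con to 6.91, 7.87 and 8.94 with A50 (lowest, median and highest), and 8 of 9 lines rose, DMS53 giving -0.10. Its mean change was 0.23 (SE 0.05, 1.175-fold, limma adjusted p = 0.00044), and its call was lost with median scaling (0.16, limma adjusted p = 0.103).

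H2AC6 lay at 6.74, 7.05 and 8.75 with Con (lowest, median, highest) and at 6.78, 7.49 and 8.92 with A50. It was higher in 9 of 9 lines, between 0.04 in H146, H209 and DMS53 and 0.44 in H526. The mean change was 0.22 (SE 0.05, 1.165-fold, limma adjusted p = 0.000425). The dose mattered for the same probes: A50 against A5 gave 0.36 and 0.22 for H2BC5 and 0.22 for H2AC6 (limma adjusted p = 2.82e-06, 0.00191 and 0.000683), the second H2BC5 call being lost with median scaling (0.16, limma adjusted p = 0.164). In that comparison 3 members rose and 1, H3C13, fell, against 3.28% and 3.98% of all probes. The H3C13 fall (-0.14, limma adjusted p = 0.0308) was lost when H128, H146, H209, H526 or DMS114 was left out, with limma adjusted p from 0.052 to 0.124.

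The falls with A50 were smaller. The H3C13 probe, for an H3 gene of the chromosome 1 cluster, had a lowest, median and highest level of 6.77, 7.15 and 7.53 with Con and of 6.69, 6.90 and 7.39 with A50. It was lower in 9 of 9 lines, by 0.02 to 0.16 in 8 of them and by 0.63 in H526, and fell by 0.15 on average (SE 0.04, limma adjusted p = 0.0161). Without H526 the change was -0.09 (limma adjusted p = 0.177), and the other 2 probes of H3C13 gave 0.04 and -0.03 (limma adjusted p = 0.568 and 0.546). H2BC7, an H2B gene, changed by -0.10 (limma adjusted p = 0.0167, lower in 7 of 9 lines) and H3C14, an H3 gene, by -0.09 (limma adjusted p = 0.0319, lower in 9 of 9). These 2 probes were near background, detected on 14 and 16 of the 63 arrays. The H2BC7 call was lost without H146, H526 or DMS53 (limma adjusted p = 0.0787, 0.0576 and 0.056), and that of H3C14 without H69, H526 or DMS153 (0.0637, 0.087 and 0.166).

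With cisplatin alone (C+0), no member rose and 2 fell, against 0.339% and 0.921% of all probes: H3C13 by 0.18 (limma adjusted p = 0.0222, lower in 8 of 9 lines, by 0.61 in H526) and H2BC7 by 0.12 (limma adjusted p = 0.0171, lower in 8 of 9 lines and level in H209). The other 2 H3C13 probes changed by 0.05 and -0.01 (limma adjusted p = 0.744 and 0.92). Leaving out H526 ended both calls (limma adjusted p = 0.132 and 0.0545), as did leaving out H128 (0.0683 and 0.0774) or DMS53 (0.0621 and 0.0519), and the H3C13 call was also lost without DMS153 (0.0841) and that of H2BC7 without H146 (0.0592). The H2BC5 probes, which rose with veliparib, changed by -0.03 and -0.04 with C+0 and H2AC6 by -0.03 (95% intervals -0.14 to 0.08, -0.14 to 0.06 and -0.12 to 0.07). Across the members the median change was -0.03, with 13 of 50 above 0, while the median of all probes was 0.00. With C+5 no member was called by limma, while 1.66% of all probes were. At an unadjusted p under 0.05 there were 9 of 50 members and 3493 of 30716 probes in all, and the unmoderated model called 0 members.

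With cisplatin and 50 µM veliparib together (C+50), 3 members rose and 5 fell, against 8.12% of all probes that rose and 9.1% that fell. The members called (16%) were again about as frequent as probes in general. The probes that rose were the same 3 as with A50, and 1 of H3C13 and that of H3C14 fell in both, as the plot of the 2 treatments shows; the comparisons share their Con arrays. H2AC20, H2AC17 and H2AC25 fell with C+50 and did not pass the test with A50. Their changes with A50 were -0.07, -0.07 and -0.07.

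**Figure D3:**
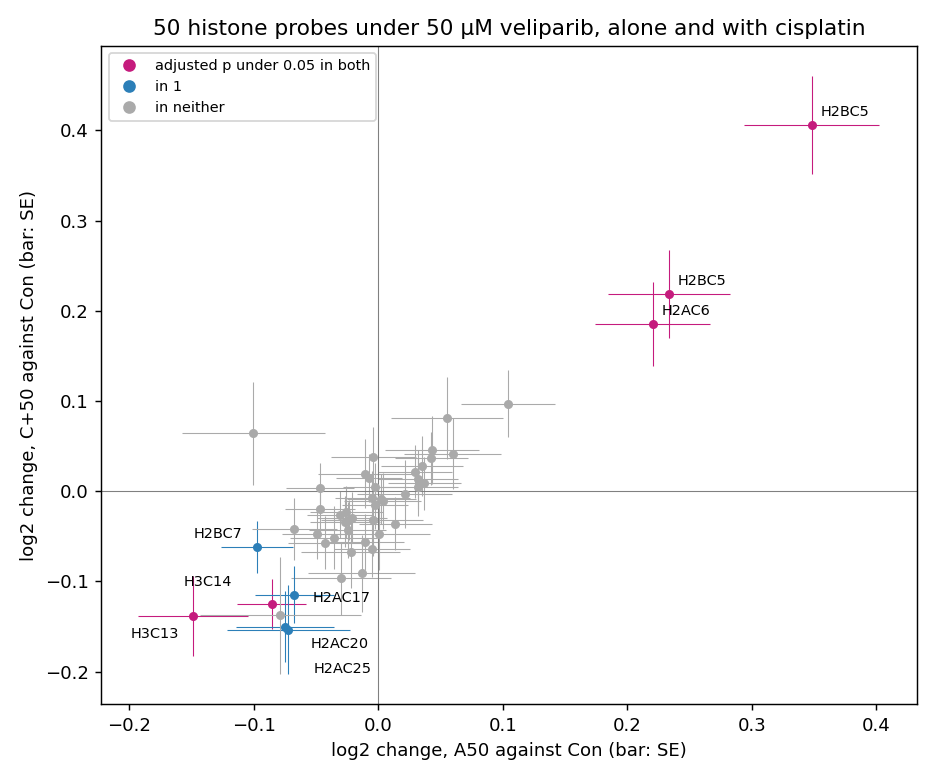
Log2 change against Con of the 50 kept histone probes with 50 µM veliparib alone (x axis) and with cisplatin and 50 µM veliparib (y axis), means over 9 lines with standard errors as bars; both axes share the Con arrays. The 2 H2BC5 probes and H2AC6 lie between 0.19 and 0.41 on both axes, away from the other members, which lie between -0.15 and 0.10.

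On the C+50 arrays the first H2BC5 probe had a lowest, median and highest level of 7.0, 8.10 and 9.63, and the level was above Con in 9 of 9 lines, from 0.07 in DMS53 to 0.74 in DMS153. The mean change was 0.41 (SE 0.05, 1.325-fold, limma adjusted p = 4.46e-08). The second probe changed by 0.22 (SE 0.05, limma adjusted p = 0.000635, higher in 7 of 9 lines) and H2AC6 by 0.19 (SE 0.05, limma adjusted p = 0.00218, higher in 7 of 9 lines). The lines without a rise were H146 and DMS53 for both of these probes. Set against cisplatin alone, the changes were 0.44, 0.26 and 0.21 (limma adjusted p = 1.86e-08, 0.000125 and 0.000701). Leaving out H128 or any other line in turn left the calls of these 3 probes past the threshold with A50 and with C+50, the first H2BC5 probe giving 0.31 to 0.38 and 0.36 to 0.45.

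In the comparison of C+50 with C+0, 4 members rose and 1 fell, against 5.35% and 6.38% of all probes, and 3 rose and 0 fell with median scaling. Without H526 the count was 3 members. The fourth to rise was the dimmer H2BC12 probe (0.13, limma adjusted p = 0.048), a call that was lost when any line but H187 or DMS53 was left out, and the brighter H2BC12 probe changed by 0.09 (limma adjusted p = 0.129). The member that fell was H2AC20 (-0.13, limma adjusted p = 0.0158), whose call was lost without H526 (0.0672) or DMS53 (0.0602). The amount by which the combination differed from its 2 single treatments added together was called for no member by limma and for 0.00977% of all probes. Unadjusted, 3 of 50 members and 2052 of 30716 probes in all had a p under 0.05, and the unmoderated model called 0 members. For the first H2BC5 probe it was 0.09 with a 95% interval from -0.07 to 0.24, and for H2AC6 -0.01 with an interval from -0.14 to 0.12.

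Among the members that fell with C+50, H2AC17 (formerly HIST1H2AM), an H2A gene, was the most even. Its lowest, median and highest levels were 6.79, 6.96 and 7.21 with Con and 6.599, 6.80 and 7.01 with C+50. The level was lower in 9 of 9 lines, by 0.03 to 0.20, and the mean change was -0.11 (SE 0.03, 0.924-fold, limma adjusted p = 0.00624). Its mean level, 6.95 with Con and 6.84 with C+50, was also lower with C+0 (6.89), C+5 (6.87) and Rad (6.86), where it was not called. H2AC20 (formerly HIST2H2AC), an H2A gene of chromosome 1, went from 7.46, 8.23 and 9.09 to 7.06, 8.03 and 9.02. It was lower in 8 of 9 lines, most in DMS53 (-0.40), with DMS114 at 0.07, and fell by 0.15 on average (SE 0.04, limma adjusted p = 0.00349).

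H2AC25 changed by -0.15 with C+50 (SE 0.05, limma adjusted p = 0.0213), with 8 of 9 lines lower and DMS114 at 0.26. Leaving out H526, DMS53 or DMS153 ended its call (limma adjusted p = 0.0877, 0.0679 and 0.119). H3C14 changed by -0.13 (limma adjusted p = 0.000574, lower in 8 of 9 lines, detected on 3 of 9 Con arrays and 1 of 9 C+50 arrays). The same H3C13 probe changed by -0.14 (limma adjusted p = 0.0198), the other 2 by 0.05 and -0.03 (limma adjusted p = 0.49 and 0.592), and the former by -0.10 without H526 (limma adjusted p = 0.0885) or -0.13 without DMS53 (limma adjusted p = 0.0527). None of the 6 member probes with the highest mean signal was called with C+50. H4C3 changed by -0.14 (SE 0.06, limma adjusted p = 0.151) and H1-2 by -0.09 (SE 0.04, limma adjusted p = 0.15). The brighter H2AC18 probe and H2AC19 changed by -0.03 and -0.05 (limma adjusted p = 0.691 and 0.525). Both H2BC12 probes went the other way, from a mean of 10.18 with Con to 10.22 with C+50 and from 8.29 to 8.37. The dimmer H2AC18 probe, not among the 6, went from 7.64 to 7.70.

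Background correction by neqc, which widens differences near background, made many of these changes more than 1.5 times as large: with C+50 it gave 0.37 for H2AC6, -0.32 for H2AC17, -0.31 for H3C13, -0.30 for H3C14, -0.24 for H2AC20 and -0.23 for H2AC25. With A50 it gave 0.43 for H2AC6 and -0.34 for H3C13, and the H2BC7 and H3C14 calls were lost (-0.18 for each, limma adjusted p = 0.0548 and 0.0524).

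By class, the members called with C+50 were 4 of 11 H2A probes (1 higher, 3 lower), 2 of 12 H2B probes (both higher), 2 of 14 H3 probes (both lower), and 0 of 3 H1 and 0 of 10 H4 probes, against the 8.12% higher and 9.1% lower over all probes. Differences between the classes were not tested. The class medians lay between -0.01 and -0.04. With the cutoffs named in the study's methods, a fold of 1.5 or more and a p under 0.01 before adjustment, no member was counted with A50 or C+50, where 0.0293% and 0.0814% of all probes were.

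**Figure D4:**
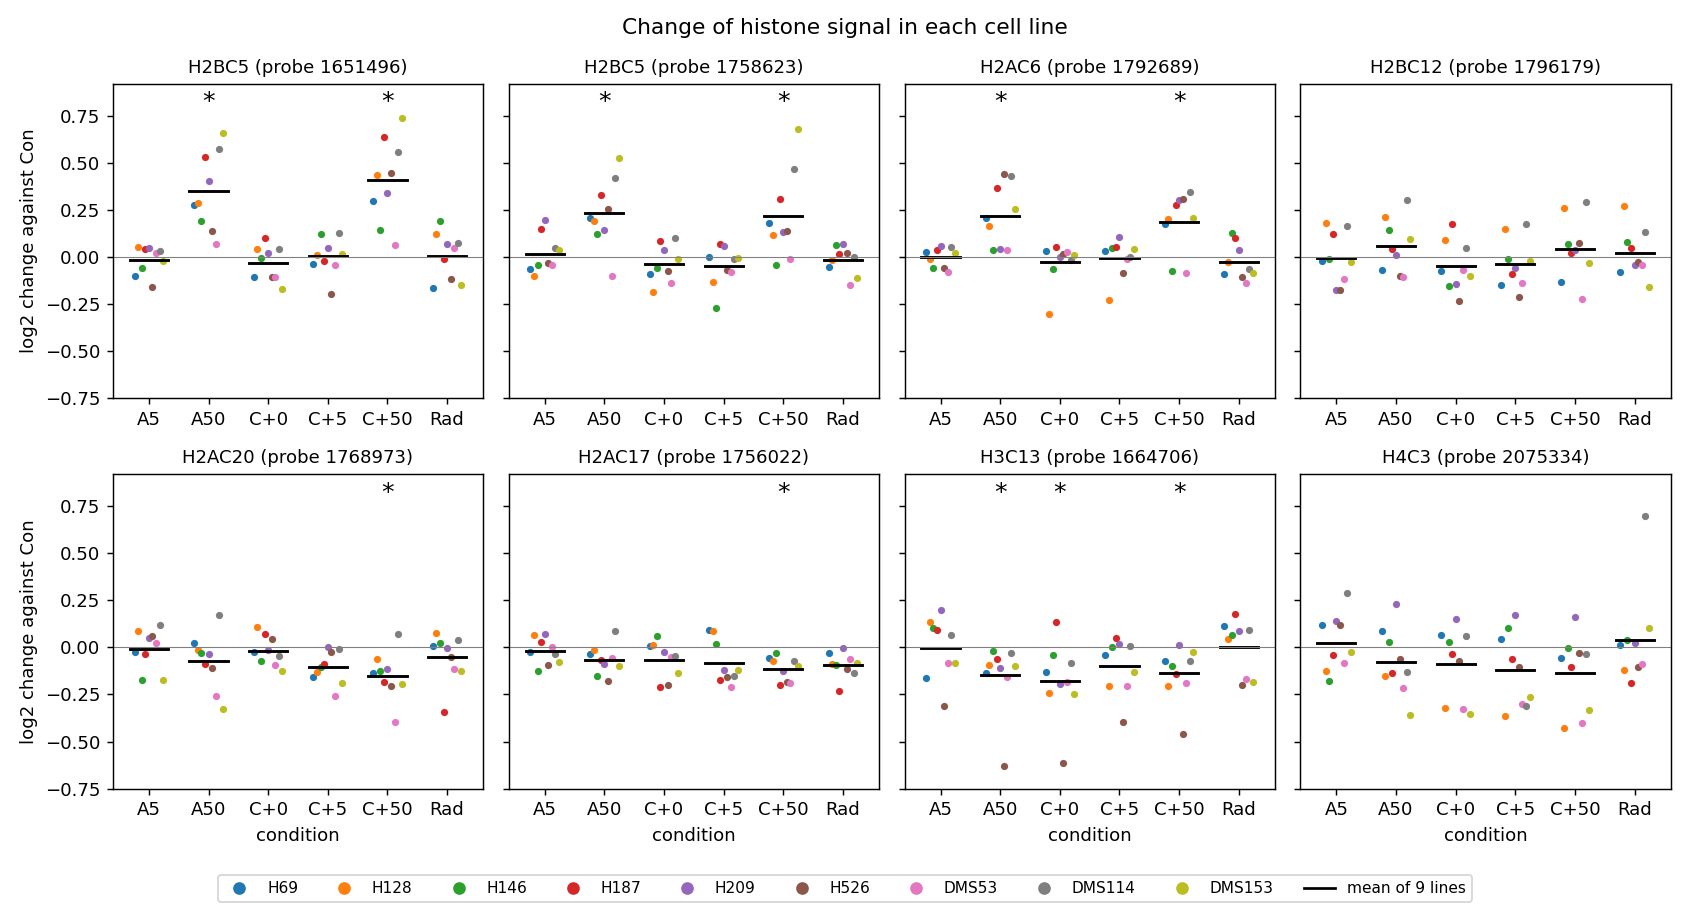
Log2 change against Con in each of the 9 lines (coloured points) under the 6 treatments for 8 histone probes, with the mean over lines as a bar and an asterisk where the limma adjusted p was under 0.05. The H2BC5 and H2AC6 points lie mostly above 0 with A50 and C+50 and scatter around 0 with A5, C+0, C+5 and Rad; the H3C13 fall is largest in H526, and the H4C3 point of DMS114 stands apart with Rad.

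Head-to-head partners could be compared where both genes had a kept probe. Start sites of opposite strand within 500 bases of each other formed 12 pairs of member genes, and 6 pairs had a kept probe for each gene. H2BC7 formed a pair with H3C4 and another with H2AC7, each at 223 bases, as H3C4 and H2AC7 share an annotated start. Only its pair with the H3 gene H3C4 was among the 6, and the H3C4 probe was detected on 4 of 63 arrays. The difference between partners in their change within each line was tested for these 6 pairs with A50 and C+50, 12 tests in all, by an exact two-sided sign-flip permutation test over the 9 lines, whose smallest p is 0.00391. H2AC6 and H2BC4 start 246 bases apart, so the printed H2AC6 sequence spans the whole interval. With A50 H2AC6 changed by 0.22 and H2BC4 by -0.01, a difference of 0.23 ± 0.19 (SD, n = 9 lines, higher in 8 of 9, exact p = 0.0117, adjusted p = 0.0468). With C+50 the difference was 0.24 ± 0.13 (SD, n = 9, 8 of 9, exact p = 0.00781, adjusted p = 0.0468). The H2BC4 probe was detected on 31 of 63 arrays, against 60 for H2AC6, so its change was measured nearer to background.

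H2AC20 and H2BC21, an H2B gene, start 236 bases apart and their probes were both detected on all 63 arrays. With C+50 H2AC20 changed by -0.15 and H2BC21 by 0.04, and the difference was -0.19 ± 0.13 (SD, n = 9, negative in 9 of 9 lines, exact p = 0.00391, the smallest possible, adjusted p = 0.0468). With A50 the difference was -0.07 ± 0.16 (SD, n = 9, exact p = 0.234). The other 4 pairs gave differences between -0.09 and 0.09 in these 2 comparisons, with adjusted p from 0.0845 to 0.213 by the same exact test. The change of H2BC17 minus that of its partner H2AC17 was 0.05 ± 0.09 with C+50 (SD, n = 9, exact p = 0.148).

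With 2 Gy of radiation (Rad), no member was called by limma, where 0.827% of all probes were. An unadjusted p under 0.05 was found for 3 of 50 members and 3737 of 30716 probes in all, and the unmoderated model called 0 members. The changes over all lines ran from -0.13 to 0.05 with a median of -0.01. The 6 H lines and the 3 DMS lines were compared as groups of line names. The level with Rad relative to the other conditions was compared, H lines minus DMS lines. This difference was called for 3 members, 2 higher and 1 lower, against 4.84% and 2.07% of all probes. With median scaling, which moved the median of all probes in this comparison from -0.01 to 0.09, 19 members were higher and 1 lower. The fit takes each line's level from all of its arrays, so the difference is not one of changes against Con. A fit with every condition split into H and DMS lines compared the changes from Con to Rad. It was chosen after seeing the data and called no member.

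The lower member was H4C3 (difference -0.42, SE 0.09, limma adjusted p = 0.000624). Its change with Rad against Con was 0.01 in H69, -0.12 in H128, 0.04 in H146, -0.19 in H187, 0.02 in H209, -0.10 in H526, -0.09 in DMS53, 0.70 in DMS114 and 0.10 in DMS153. The value of DMS114 was far from all others, and without that line the difference was -0.26 (limma adjusted p = 0.0627). It was -0.29 with every condition split (limma adjusted p = 0.144), -0.24 with median scaling (limma adjusted p = 0.0394) and 0.19 without the line as a block (limma adjusted p = 0.877). In DMS114 the 7 arrays ran from 12.35 to 13.36, the Rad array being the highest, which was still the lowest Rad level among the lines.

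The higher members were H2AC11 (0.18, limma adjusted p = 0.0389) and the probe shared by H3C6 and H3C11 (0.14, limma adjusted p = 0.0387). Against Con, H2AC11, an H2A gene, changed by 0.01 on average in H lines and by -0.19 in DMS lines, lower in each of the 3 DMS lines. The shared H3 probe changed against Con by 0.05 in H lines and by -0.01 in DMS lines and was detected on 19 of 63 arrays. Each call was lost in 7 of the 9 fits with a line left out, the calls that held being those without H209 or H526 for H2AC11 and without H146 or H526 for the H3 probe. Without DMS114 the H2AC11 difference was 0.12 (limma adjusted p = 0.32), and with every condition split that of the H3 probe was 0.05 (limma adjusted p = 0.785).

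Genes that act with the histone genes were counted in the same fit, and their counts are to be read against the shares of all probes called, 5.45% higher and 6.22% lower with A50, 0.339% and 0.921% with C+0, and 8.12% and 9.1% with C+50. Each list gene was counted by its kept probe of highest mean signal, while the members and the shares of all probes include every kept probe. Dim probes, such as the 20 kept members detected on 4 to 32 arrays, weigh on those and less on the lists. Of 21 S phase genes tested (cyclin E, CDC6, MCM helicase subunits and others), 13 rose and 1 fell with C+50, 7 rose with C+0 and 4 rose with A50, and none fell in the last 2. The largest changes with C+50 were those of MCM5, a subunit of the replicative helicase (0.37, limma adjusted p = 6.37e-07, 8 of 9 lines), CCNE1, cyclin E1 (0.35, limma adjusted p = 7.25e-08, 9 of 9 lines) and CDC25A, a phosphatase that activates CDK2 (0.29, limma adjusted p = 1.33e-07, 9 of 9 lines). The list's median change was 0.14 with C+50, against -0.02 for the histone members and 0.00 for all probes.

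Of 13 genes of histone mRNA synthesis and turnover, none was called with A50 by limma, 1 rose with C+0 and 3 rose with C+50, where 8.12% of all probes rose and 9.1% fell. The 3 were SLBP, the stem-loop binding protein (0.25, limma adjusted p = 2.15e-05, 9 of 9 lines), NPAT, the coactivator of histone gene transcription (0.18, limma adjusted p = 0.00191, 8 of 9 lines), and UPF1, a helicase used in histone mRNA decay (0.12, limma adjusted p = 0.0213, 8 of 9 lines). SLBP was also the gene that rose with C+0 (0.19, limma adjusted p = 0.0174). The list's median with C+50 was -0.01, and the other 10 genes were not called.

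Of 19 histone chaperones, which escort histones to DNA, 5 rose and 2 fell with C+50 and 4 rose and 2 fell with A50. RBBP4, a subunit of CAF-1 and other chromatin complexes, rose by 0.33 with C+50 (limma adjusted p = 4.44e-08) and CHAF1B, another CAF-1 subunit, by 0.25 (limma adjusted p = 3.93e-05). HJURP, the chaperone of the centromeric H3 variant, fell by 0.39 with C+50 in 9 of 9 lines (limma adjusted p = 8.46e-09). Of 11 replication-independent histones, whose synthesis is not restricted to S phase, none rose, 4 fell with A50 and 5 with C+50. CENPA, the client of HJURP, fell by 0.89 with C+50 in 9 of 9 lines (limma adjusted p = 4.23e-16). The H2A.Z genes fell as well: H2AZ2 by 0.22 with C+50 (limma adjusted p = 1.53e-06, 9 of 9 lines) and H2AZ1 by 0.21 with A50 (limma adjusted p = 4.66e-05, 9 of 9 lines). None of the 4 lists had a gene called with Rad. The 7 neuroendocrine markers tested gave no call in these 4 comparisons with Con, and of the 4 non-neuroendocrine markers CD44 fell with A50 and C+50 (-0.13 and -0.12). In 5 of the 9 lines CD44 was detected on no array, so its mean change includes lines at background.

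**Figure D5:**
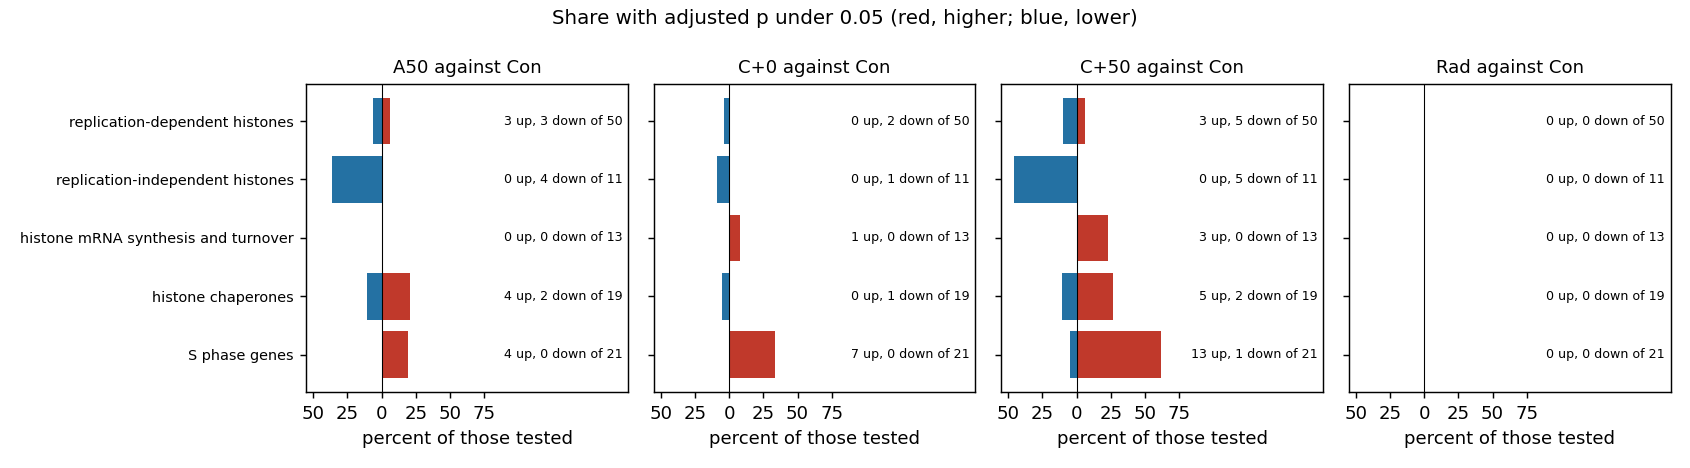
Percent of the tested probes or genes with a limma adjusted p under 0.05 in 4 comparisons with Con, higher to the right in red and lower to the left in blue, for the histone members and 4 lists of related genes; the counts stand at the right of each panel. S phase genes were called upward most often, 13 of 21 with C+50, and replication-independent histones only downward. Each list gene is counted by its brightest kept probe, the histone members by every kept probe.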

How the data were processed

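Total RNA of the 9 lines was read on 63 Illumina HumanHT-12 v4 arrays; the submitters' processing notes name GenomeStudio 2010.3. The authors deposited the intensity of each probe before normalization and after quantile normalization, and a detection p-value for each probe and array. The former were quantile normalized with no background correction and log2 transformed in limma 3.58.1 (R 4.3.3, data.table version 1.17.8, jsonlite 2.0.0). The largest difference from the deposited normalized values was 0.0151 (log2). A probe was kept if its detection p was below 0.05 on 4 or more arrays. Treatments were tested by lmFit and eBayes with the line as a fixed block over all 63 arrays. The labels name the line of each array, which pairs the conditions, and arrays of a line deviated together from the condition means (r of at least 0.928, against a median of -0.13 between lines). Code was tested on simulated data. Members, lists and tests were chosen with earlier results of these data known. Named members were those called with A50, C+0, C+50 or Rad (up to 6 each way), the 6 with the highest mean signal and the 4 with the widest range over Con arrays; up to 3 called genes were named per list. H2BC21, H2BC4, H2BC17, H2AC11, the shared H3 probe and further members were named outside this rule after their values were seen. A few genes of the lists were not analysed here. The lists gave 21 S phase genes, 13 of histone mRNA synthesis and turnover, 19 chaperones, 11 replication-independent histones, and 7 and 4 markers. The precision of the values is limited by 1 array per line and condition. Alternatives were the authors' normalized values, background correction by neqc, median scaling, other filters, the compared arrays alone, no block, an unmoderated linear model, the methods' thresholds and each line left out.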

Additional observations from a re-analysis of the deposited data

Results flagged for a closer look

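Of 31 sets of 9 lines examined (the changes of called members and the Con levels of named members), 3 had a line far from the rest by Dixon's ratio, the gap to the nearest line over the whole range, where chance gives about 1 in 20 for a single set. The sets share Con arrays and are not independent, so 3 of 31 cannot be read against that rate. The H3C13 change had a ratio of 0.774 with A50 and 0.537 with C+50, in both through H526 (-0.63 and -0.46). Both used the same H526 Con array, whose level of 7.53 was the highest among the arrays of that line. The H4C3 level on the Con arrays had a ratio of 0.707, through DMS114 at 12.67. The Rad level relative to the other conditions differed between H and DMS lines by limma for H2AC11 (0.18), H4C3 (-0.42) and the probe of H3C6 and H3C11 (0.14). With every condition split into H and DMS lines, chosen after seeing the data, none of the 3 was called (H4C3 -0.29 and the H3 probe 0.05), and none was called without DMS114.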

How the results depend on the processing

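Calls were counted under 9 other settings and with each line left out. The no-call results of A5, C+5, Rad and the departure from additivity stayed at 0 members in all of them. The 28 changes of called members kept direction and call in 168 of 222 refits under other settings and 203 of 252 with a line left out. The call was lost in 53 and 49, and 1 change reversed: H4C3 in the Rad comparison of H and DMS lines, 0.19 without the block; the cause was not tested. Without the line as a block (no pairing by line) 0 members were called in each of A50, C+0, C+50, A50 against A5, C+50 against C+0 and the Rad comparison. With the methods' thresholds the count was 0 in these 6 as well. On the compared arrays alone it was 3 with A50, 0 with C+0 and 0 in the Rad comparison. Median scaling gave 1 with C+0, 3 for C+50 against C+0 and 20 in the Rad comparison. The strict filter, which tested 24 members, gave 1 with C+0. With every condition split by H and DMS lines, an alternative chosen after seeing the data, the Rad comparison gave 0.

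Leaving out each line gave 4 to 7 members with A50, 0 to 2 with C+0, 6 to 11 with C+50, 3 to 5 for A50 against A5, 3 to 6 for C+50 against C+0 and 0 to 3 in the Rad comparison (0 without DMS114). At a detection p under 0.01 on at least 4 arrays, 42 members counted as detected in place of 50. Dim probes limit what could be seen: 28 member probes were not tested.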
